A study of Mus musculus with 88 samples.

Results

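The transcripts described here were measured in the kidney medulla of mice whose neck alone was irradiated (group A, irradiated area collum, 3 arrays) and in the kidney medulla of sham mice (irradiated area none, 5 arrays), which together are 8 of the 88 arrays of the series. The members were taken from the labels of tissue and irradiated area, and each array is 1 mouse. The study asked how tissues respond when they are themselves irradiated and when only the thyroid or only other tissues are. RNA of 6 tissues from 14 female Balb/c nude mice, 4 months old, was taken 24 h after irradiation and measured on Illumina MouseRef-8 beadchips. Group A received 2 Gy of 4 MV photons through a field of 10 × 10 mm over the neck, so that the kidneys lay outside the field. Sham mice received 0 Gy. Every mouse, the sham mice included, was anaesthetized and carried the Foxn1nu mutation, which leaves it without a thymus and without mature T cells. Group B (thorax and abdomen, 2 Gy, 3 mice) and group C (neck, thorax and abdomen, 2 Gy, 3 mice) entered the fit for the medulla and served for comparison. Cortex and medulla were cut apart by hand from frozen kidneys, and only RNA with an integrity number of at least 6.0 was used by the study.

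The medulla holds the loops of Henle and the collecting ducts. The thick ascending limb pumps salt out of the tubule and burns much of the oxygen the medulla receives, and its mitochondria feed that pump through the citric acid cycle and the respiratory chain. The thin limbs and collecting ducts handle water and urea at high osmolality. Directly irradiated cells typically raise targets of the transcription factor p53, whereas an organ outside the field can only be reached by scattered radiation or by signals carried in blood or nerves. The thyroid lay inside the field of group A, and the kidney is a target of thyroid hormone.

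Of 25697 probes, 12296 had a detection p under 0.01 on at least 3 of the 14 medulla arrays and were tested. The share of probes detected ran from 41.75% to 46.25% over the medulla arrays. Values are log2 intensities after background correction and quantile normalization, a log2 ratio is the group A mean minus the sham mean, and SE is its standard error. Changes are on this log2 scale unless given as a fold. Regulated transcripts are those whose p after adjustment was under 0.01 and whose log2 ratio was 0.58 or more in size. The dissection was checked against cell markers with the 28 kidney arrays normalized together. In sham mice 10 of 15 collecting duct markers and 9 of 10 markers of inner medullary interstitium and urothelium were higher in medulla than in cortex. Of 21 proximal tubule markers 6 were also higher in medulla. The proximal tubule gene Kap spanned 14.01 to 14.32 in sham medulla and 12.26 to 14.19 in sham cortex. The thick limb gene Umod hardly differed, at 14.64 to 14.93 and 14.66 to 14.85. The water channel gene Aqp2 of the collecting duct spanned 10.17 to 11.08 in sham medulla and 8.77 to 9.21 in sham cortex. The urothelial gene Upk1b spanned 6.98 to 8.46 in medulla and 4.51 to 4.98 in cortex. The organic anion transporter gene Slc22a8 of the proximal tubule spanned 7.77 to 8.74 in medulla and 9.53 to 9.77 in cortex. The medulla samples still held proximal tubule RNA, since the phosphate transporter gene Slc34a1 reached 14.41 to 15 in sham medulla. Of the arrays of other groups, replicate 2 of group C correlated least with the other medulla arrays (mean correlation 0.937, against 0.968 to 0.978 for the others). The slide of each array is not given in the sources used here, so slide and group cannot be told apart.

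In group A, 171 transcripts were regulated, 152 upregulated and 19 downregulated (1.24% and 0.155% of the tested transcripts, limma with Benjamini-Hochberg adjustment). The upregulated transcripts belong to 141 named genes and 9 probes without a gene symbol, and the downregulated ones to 16 named genes and 3 unnamed probes. The median log2 ratio was 1.21 among the upregulated (0.6 to 3.39) and −0.83 among the downregulated (−1.31 to −0.66), beside −0.05 over all tested transcripts. The sizes moved with the background correction: the medians of the same transcripts were 0.75 and −0.47 with the authors' normalized values and 0.81 and −0.53 without background correction. All 152 lay above and all 19 below every sham array in group A, as did 11.4% and 11.1% of all tested transcripts. An unadjusted p under 0.05 was reached by 1540 transcripts that were higher (12.5%) and 1361 that were lower (11.1%) in group A. The direction of all 171 was the same in every alternative in which they were tested, but the count of calls was not. Without replicate 1, 2 or 3 of group A, 3, 9 and 11 upregulated transcripts were called, and 0, 0 and 2 downregulated ones. Without replicate 1, 2, 3, 4 or 5 of sham, 59, 51, 94, 86 and 84 upregulated and 1, 2, 9, 4 and 4 downregulated transcripts were called. Arrays of the other groups also set the spread: without replicate 1 of group B the counts were 91 and 4, without its replicate 2 they were 125 and 9, and without its replicate 3 they were 117 and 11. Without replicate 2 of group C they were 370 and 97, and without its replicate 3 they were 446 and 51.

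**Figure D1:**
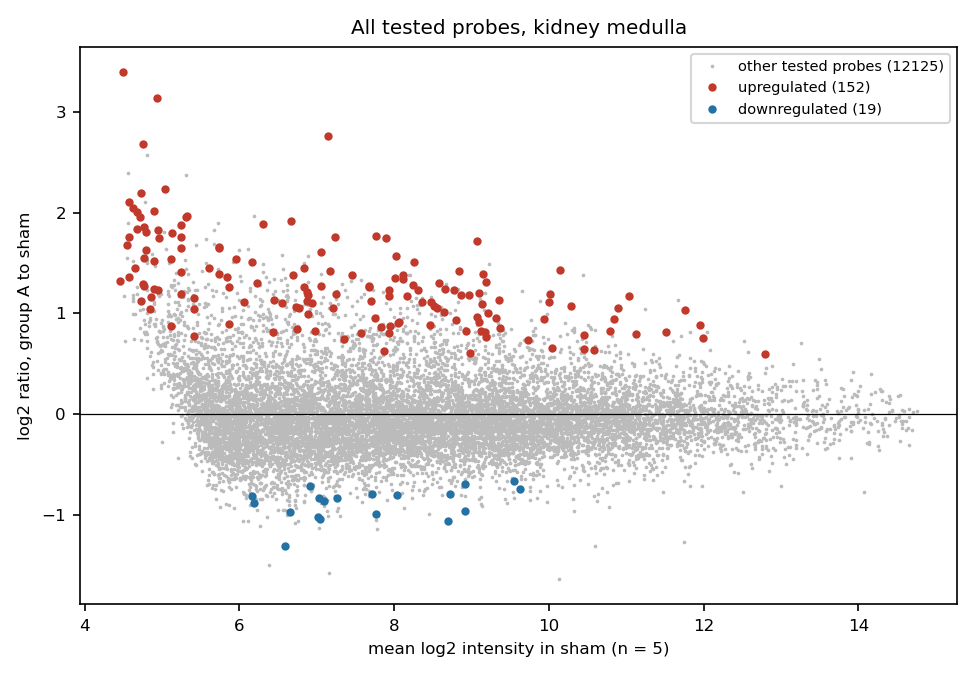
Log2 ratio of group A (n = 3) to sham (n = 5) against the mean log2 intensity in sham, for each of the 12296 tested probes of the kidney medulla. Red points are the 152 upregulated and blue points the 19 downregulated transcripts, and the largest ratios lie at the low end of the intensity axis.

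Many of the upregulated transcripts were dim in sham mice. Their median log2 intensity in sham was 7.22, beside 8.12 over all tested transcripts. In sham mice 39 of the 152 were not well above background on any array, and for these at most a bound of the change can be given. They passed the filter through irradiated arrays alone, where they are high, so that a fall against sham could not have been called for them. When only probes detected on all 8 arrays were tested, 145 transcripts were upregulated and 26 downregulated, among them 98 of the 152 and 15 of the 19. The bound sets the mean of group A against the lowest level of a detected probe on each sham array, or the probe's own level where that was higher. It ran from at least 1.04-fold to at least 4.82-fold for the 38 transcripts that have one, and with these at their bound the median log2 ratio of the upregulated was 1.08.

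The citric acid cycle oxidizes acetyl groups in the mitochondrial matrix. Of 20 tested genes on a list of its enzymes and of enzymes linked to it, 8 had an upregulated probe and 0 a downregulated one. Of all 8617 tested genes 1.64% and 0.186% did. The linked enzymes include the cytosolic Mdh1, Idh2, which makes NADPH, and subunits of pyruvate dehydrogenase. With the brightest probe of each gene alone, 3 of 20 were upregulated, beside 1.17% of all genes, and the median log2 ratio of the list was 0.07 (−0.05 over all genes). Of the 8, Mdh1, Sdhb, Sdhc and Suclg1 were called on probes detected in no sham mouse, which could only be called up. The 3 are Dld, Idh2 and Sdhd. Dld, the shared E3 subunit of the pyruvate and oxoglutarate dehydrogenases, had log2 intensities of 9.9, 10.02 and 10.09 in group A and of 9.12, 8.66, 9.09, 8.4 and 8.59 in sham. The groups did not overlap, and the log2 ratio was 1.23 (adjusted p = 0.0055, SE 0.21). Idh2, the mitochondrial isocitrate dehydrogenase that makes NADPH, was among the brightest of the regulated transcripts, with 13.03, 12.69 and 12.8 in group A and 11.88, 11.76, 12.07, 12.04 and 12 in sham. Its log2 ratio was 0.89 (adjusted p = 0.00754, SE 0.162). The other members with a single tested probe (Cs, Dlat, Dlst, Fh1, Idh3a, Idh3b, Mdh2, Ogdh, Pdha1 and Sucla2) were not called, with log2 ratios between −0.37 for Ogdh and 0.97 for Sucla2.

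Succinate dehydrogenase, which is complex II of the respiratory chain and a step of the cycle, was upregulated on a probe of 3 of its genes. Sdhd, a membrane anchor of the complex, had 10.19, 10.34 and 10.96 in group A and 9.25, 9.11, 9.09, 9.29 and 9.19 in sham, and all of the former lay above all of the latter. Its log2 ratio was 1.31 (adjusted p = 0.00361, SE 0.193). The upregulated probe of Sdhb, the iron-sulfur subunit, read 6.95, 7.0 and 7.06 in group A and was not well above background in any sham mouse, at least 2.3-fold lower (adjusted p = 0.00361). That of Sdhc, the other anchor, gave at least a 1.34-fold difference (adjusted p = 0.00643). The brighter probes of both genes, at 12 and above on the log2 scale, moved little: those of Sdhb had log2 ratios of 0.18 (SE 0.122) and 0.09 (SE 0.0952), and that of Sdhc had −0.09 (SE 0.155).

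The promoters of Sdhb, Sdhd and Tomm22 are shown as examples of upregulated mitochondrial genes that hold the letters CCGGAAG. These are the core recognized by ETS factors such as GABP, a known activator of respiratory genes. They were picked because they hold the letters: the windows of the upregulated genes Mdh1, Suclg1 and Vbp1, looked up alongside, did not. The sequences are RefSeq windows of the build GRCm38.p6 that span the gene start, most of each window upstream, and the capitals mark the letters on either strand.
Sdhb, chr4:140961021-140961320, plus strand: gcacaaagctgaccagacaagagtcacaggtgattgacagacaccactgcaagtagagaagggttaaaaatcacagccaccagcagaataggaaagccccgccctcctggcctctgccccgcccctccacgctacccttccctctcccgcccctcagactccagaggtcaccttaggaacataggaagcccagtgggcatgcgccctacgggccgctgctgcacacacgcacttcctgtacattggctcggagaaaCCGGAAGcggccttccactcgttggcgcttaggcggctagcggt
Sdhd, chr9:50603800-50604099, minus strand: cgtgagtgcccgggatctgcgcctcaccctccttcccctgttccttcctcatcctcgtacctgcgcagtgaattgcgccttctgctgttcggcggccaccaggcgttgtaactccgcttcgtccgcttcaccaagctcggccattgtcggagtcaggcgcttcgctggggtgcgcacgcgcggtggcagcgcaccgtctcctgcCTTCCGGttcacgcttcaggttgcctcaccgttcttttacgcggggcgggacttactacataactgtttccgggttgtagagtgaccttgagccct
Tomm22, chr15:79670618-79670917, plus strand: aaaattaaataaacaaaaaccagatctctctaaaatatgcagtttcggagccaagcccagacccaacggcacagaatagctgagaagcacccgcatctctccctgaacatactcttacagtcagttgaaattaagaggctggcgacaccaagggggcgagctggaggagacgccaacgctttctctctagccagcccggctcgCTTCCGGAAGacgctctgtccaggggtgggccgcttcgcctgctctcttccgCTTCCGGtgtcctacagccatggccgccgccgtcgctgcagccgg
The letters were present in 35 of the 152 windows that matched 122 of the upregulated genes (23%), in 17.0% of the windows of all tested genes and in 8.86% of all windows. Of the 18 windows of 14 downregulated genes, 1 held them (5.56%). These matches are descriptions of the windows and were not tested, and the array's signal says nothing of binding there.

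Further members of the citric acid cycle list were upregulated only on the dimmest of their tested probes. For Mdh1, the cytosolic malate dehydrogenase of the malate-aspartate shuttle, the upregulated probe read 8.2, 7.8 and 8.21 in group A and was not well above background in sham, at least a 4.82-fold difference (adjusted p = 0.00391). Its brighter probes, at 10.35 and 8.13 in sham, had log2 ratios of 0.33 (SE 0.166) and 0.57 (SE 0.227) and were not called. For Suclg1, a subunit of succinyl-CoA ligase, the upregulated probe gave at least a 3.11-fold difference (adjusted p = 0.00454), while its brightest probe had a log2 ratio of 0.18 (SE 0.103). Pdhb, a subunit of pyruvate dehydrogenase, was upregulated by 1.07 (adjusted p = 0.00469, SE 0.176) on its dimmer and gave 0.22 (SE 0.123) on its brighter probe.

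In the rest of the respiratory chain, an upregulated probe was found for 3 of 33 genes of complex I (NADH dehydrogenase) and 4 of 34 genes of complexes III to V, and a downregulated probe for 0 genes of either, beside 1.64% and 0.186% of all genes. With the brightest probe alone 2 and 3 were upregulated (1.17% of all genes), and the median log2 ratios of the lists were −0.05 and −0.03, as for all genes. Ndufb9, an accessory subunit of complex I, had 11.09, 11.27 and 11.29 in group A and 9.86, 10.37, 9.8, 10.11 and 9.97 in sham, a log2 ratio of 1.19 (adjusted p = 0.00613, SE 0.209). Ndufb4, another accessory subunit, had 9.58, 9.5 and 9.27 in group A and 8.16, 7.7, 8.02, 8.41 and 8.24 in sham, with a log2 ratio of 1.34 (adjusted p = 0.00529, SE 0.227). In neither gene did group A overlap sham. Ndufa5 was upregulated by 1.18 (adjusted p = 0.00904, SE 0.224) on a probe at 8.86 in sham and gave −0.08 (SE 0.131) on its probe at 13.17.

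Atp5a1, the alpha subunit of ATP synthase, had 12.22, 12.29 and 12.09 in group A and 11.03, 11.05, 10.95, 10.9 and 11.23 in sham. The values of group A lay about 1 log2 unit above sham, with a log2 ratio of 1.17 (adjusted p = 0.00361, SE 0.182). Cox7b, a subunit of cytochrome c oxidase, had 9.57, 9.38 and 9.96 in group A and 7.83, 7.62, 7.81, 8.07 and 8.12 in sham, with a log2 ratio of 1.75 (adjusted p = 0.00361, SE 0.274). Cycs, cytochrome c itself, had 8.93, 8.48 and 8.54 against 7.32, 6.26, 7.25, 7.25 and 7.16, with a log2 ratio of 1.61 (adjusted p = 0.00361, SE 0.225), and sham replicate 2 lay below the other sham mice. The upregulated probe of Atp5j, the coupling factor 6 of ATP synthase, was not well above background in sham (at least 1.84-fold, adjusted p = 0.0061), and its probe at 13.54 in sham had a log2 ratio of 0.0 (SE 0.109).

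Outside the chain, genes of mitochondrial import and fuel use had some of the smallest p of the comparison. These were chosen after their values were seen. Tomm22, the receptor through which the outer membrane takes up precursor proteins, had 8.02, 8.11 and 8.14 in group A and 6.64, 6.7, 6.92, 6.93 and 6.98 in sham. Its log2 ratio of 1.26 (adjusted p = 0.000499, SE 0.124) was large beside an SD of 0.06 in group A and 0.15 in sham. Pmpcb, a subunit of the peptidase that trims imported precursors, had a log2 ratio of 1.18 (adjusted p = 0.00361, SE 0.178). The upregulated probe of Acadl, the long-chain acyl-CoA dehydrogenase, read 6.52, 7.01 and 6.47 in group A and was not well above background in sham (at least 1.83-fold, adjusted p = 0.000712). The brighter probes of Acadl had log2 ratios of 0.22 (SE 0.113) and 0.29 (SE 0.176). Hadhb, the thiolase subunit of the trifunctional protein, had a single tested probe, with 12.75, 12.82 and 12.66 in group A and 11.98, 11.86, 12.11, 12.06 and 11.92 in sham, and its log2 ratio was 0.76 (adjusted p = 0.0055, SE 0.13). Of the 14 tested genes of fatty acid oxidation and fasting, these 2 had an upregulated probe (1.64% of all genes). By the brightest probe Hadhb alone was called, 1 of 14, and the list's median log2 ratio was −0.02.

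**Figure D2:**
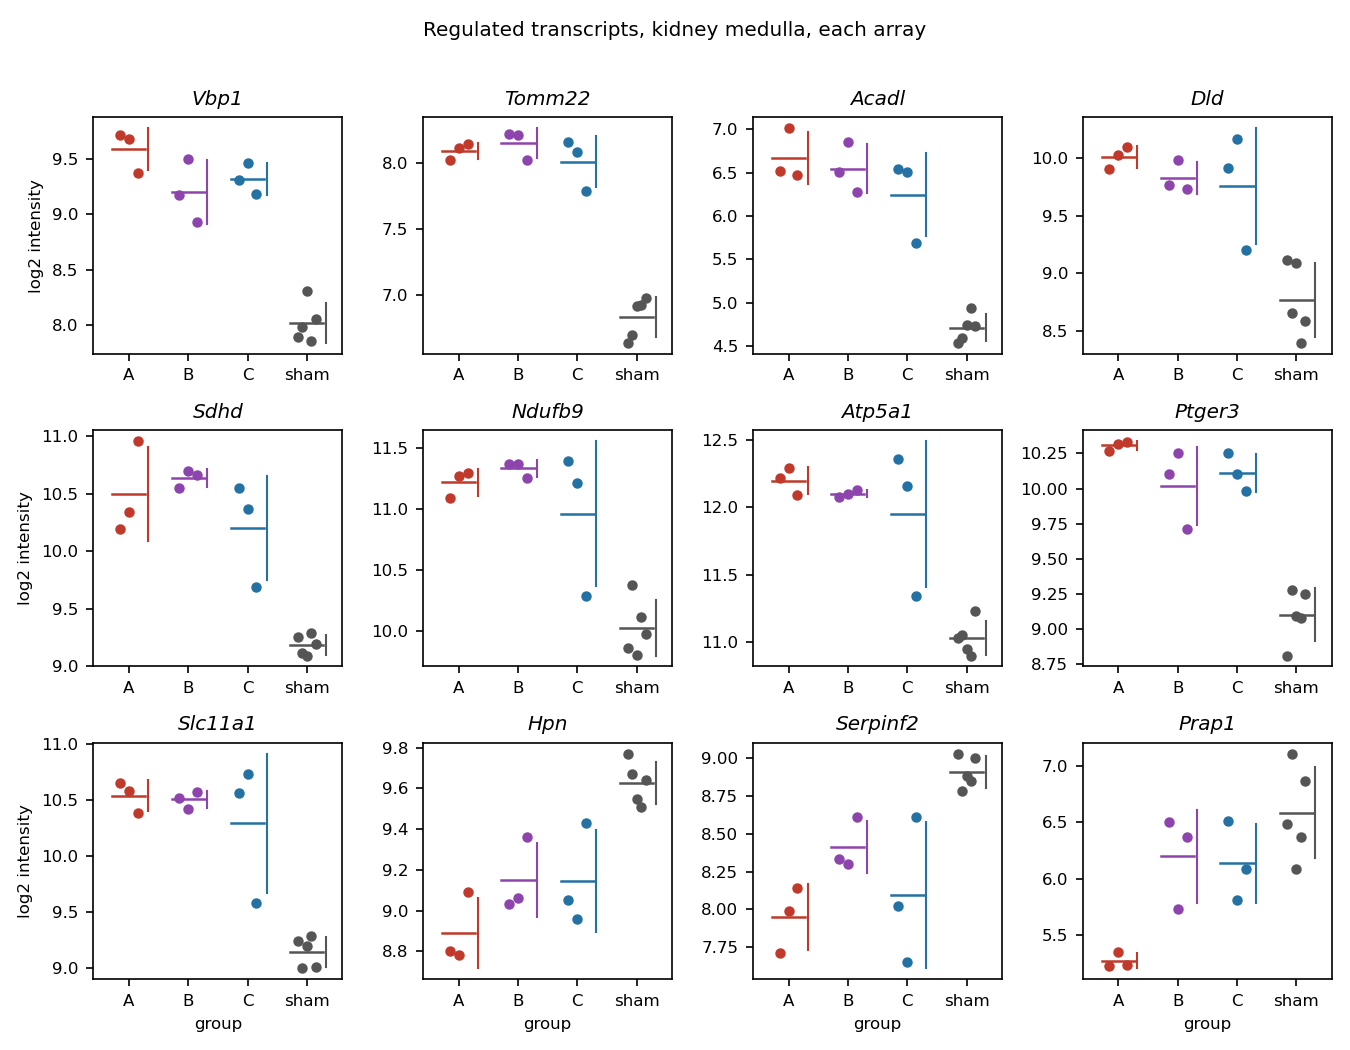
Log2 intensity of 12 regulated transcripts in the kidney medulla on each array of groups A, B and C (n = 3 each) and sham (n = 5). Horizontal lines are group means and vertical lines ± 1 SD; each axis has its own range. Group A lies above sham for the first 9 genes and below it for Hpn, Serpinf2 and Prap1.

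Among 23 tested translation factor genes, 3 had an upregulated probe and 0 a downregulated one (1.64% and 0.186% of all genes), and 2 were upregulated by their brightest probe (1.17% of all genes). For Eef1a1, which brings aminoacyl-tRNA to the ribosome in every cell, the only tested probe read 8.03, 7.87 and 7.78 in group A and was not well above background in any sham mouse (at least 4.27-fold, adjusted p = 0.00641). It read 4.43 in group C replicate 3, and the call was lost in 11 of 14 fits with 1 array left out. Which transcript this probe reads was not analysed, so it need not give the level of the gene as a whole. Eef1b2, the nucleotide exchange factor of Eef1a1, was upregulated by 1.07 (adjusted p = 0.00318, SE 0.146) on the dimmest of 3 probes and had log2 ratios of 0.36 (SE 0.142) and −0.09 (SE 0.106) on the brighter ones. Pabpc1, the poly(A)-binding protein of the cytoplasm, had 11.22, 11.3 and 11.19 in group A and 10.38, 10.66, 10.33, 10.42 and 10.44 in sham, a log2 ratio of 0.79 (adjusted p = 0.00948, SE 0.151). Ribosomal protein genes were not called in either direction (0 of 45, median log2 ratio −0.02), with 6 probes higher and 5 lower at an unadjusted p under 0.05.

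Of 23 tested splicing factor genes, 2 had an upregulated probe (1.64% of all genes) and 1, Acin1, was upregulated by its brightest (1.17%). Acin1, a component of the exon junction machinery that is also cleaved in apoptosis, had 9.85, 9.57 and 10.3 in group A and 7.24, 7.17, 7.2, 6.77 and 7.36 in sham. Its log2 ratio of 2.76 (adjusted p = 0.00361, SE 0.415) was the largest among transcripts detected on all 8 arrays, and the other probe of the gene, at 6.63 in sham, had a log2 ratio of 0.15 (SE 0.192). Hnrnpa2b1, an RNA-binding protein, was upregulated by 1.51 (adjusted p = 0.00605, SE 0.263) on its dimmer probe and gave −0.11 (SE 0.113) on the brighter. Nono, a paraspeckle protein, had 7.54, 7.45 and 6.89 in group A and 5.31, 4.93, 4.59, 6.07 and 5.72 in sham, where it was detected in 1 mouse of 5. Its log2 ratio was 1.97 (adjusted p = 0.0051, SE 0.33). Zfand6, a zinc finger protein, had 8.39, 8.74 and 8.64 against 6.76, 6.19, 7.17, 6.48 and 6.73, a log2 ratio of 1.92 (adjusted p = 0.00361, SE 0.278), and its brighter probe had 0.27 (SE 0.184). Gm14325, a predicted gene, was detected in 1 sham mouse of 5 on the called probe and had a log2 ratio of 1.88 (adjusted p = 0.00318, SE 0.258), beside 1.21 (adjusted p = 0.0856, SE 0.403) on its brighter probe.

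Further transcripts among the 15 with the largest ratios were not well above background in sham. Bounds were at least 2.76-fold for Tspan3, a tetraspanin of the plasma membrane, and for Rpl22l1, a ribosomal protein paralogue. They were at least 2.19-fold for Ccni, an atypical cyclin, 1.83-fold for H2bc4, a histone H2B gene, and 1.76-fold for Car2, carbonic anhydrase 2 of the intercalated cell (adjusted p between 0.00318 and 0.00605). The brighter probes of Tspan3, H2bc4 and Car2, all above 11 in sham, had log2 ratios of 0.08 (SE 0.108), 0.32 (SE 0.1) and −0.09 (SE 0.162). H2bc4 and its neighbours in the histone cluster are near-identical in sequence, so this probe may read several of them.

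Vbp1, a prefoldin subunit that hands unfolded actin and tubulin to the chaperonin, had 9.71, 9.68 and 9.37 in group A and 7.89, 7.98, 8.31, 7.86 and 8.05 in sham. With a log2 ratio of 1.57 (adjusted p = 0.000499, SE 0.153) it shared the smallest adjusted p with Tomm22. It was the only called gene of 17 in the heat shock and chaperonin list, beside 1.17% of all genes upregulated by their brightest probe. The list's median log2 ratio of 0.41 stood beside −0.05 over all genes. At an unadjusted p under 0.05, 7 of its probes were higher and 1 lower (over all tested transcripts 12.5% and 11.1%). Hspe1, the mitochondrial co-chaperonin, had a log2 ratio of 0.79 (adjusted p = 0.0105, SE 0.156) and missed the threshold. The next genes, all of membrane traffic, were picked from the called transcripts after their values were seen and form no tested group. Chmp5, a subunit of the ESCRT machinery of multivesicular bodies, had 9.55, 9.57 and 9.37 in group A and 8.2, 8.04, 8.21, 8.18 and 7.96 in sham (log2 ratio 1.38, adjusted p = 0.000712, SE 0.148). Chmp2a of the same machinery, the sorting nexins Snx1 and Snx3, and the cargo receptor Tmed2 were also upregulated, by 0.81, 1.28, 1.38 and 1.19, and the brighter probes of Chmp2a had log2 ratios of 0.22 (SE 0.115) and 0 (SE 0.112). Tm9sf2, an endosomal transmembrane protein, was upregulated on 2 of its 3 probes, by 0.85 and 1.13, and had a log2 ratio of 0.73 (adjusted p = 0.0198, SE 0.167) on the brightest.

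The genes of this paragraph were chosen after their values were seen and form no tested group. Birc2, an inhibitor of apoptosis that ubiquitinates its targets, had a log2 ratio of 1.21 (adjusted p = 0.00318, SE 0.165) on 1 of 3 probes, and −0.17 (SE 0.124) on the brightest and −0.1 (SE 0.169) on the dimmest. Aifm1, a mitochondrial oxidoreductase that can enter the nucleus of dying cells, reached 1.24 (adjusted p = 0.00318, SE 0.169) on its dimmer and −0.08 (SE 0.183) on its brighter probe. Bcl2, the anti-apoptotic protein of the outer membrane, was upregulated by 0.75 (adjusted p = 0.00391, SE 0.12) on the brightest of 5 probes, while the others ran from −0.36 to 0.93. Bik, a pro-apoptotic member of the same family, was downregulated: it had 8.16, 8.09 and 8.43 in group A and 8.75, 8.82, 8.84, 9.11 and 9.04 in sham. Its log2 ratio was −0.69 (adjusted p = 0.00613, SE 0.121). Ctnnb1, the gene of beta-catenin, had 12.73, 12.77 and 12.85 against 11.87, 11.58, 11.85, 11.73 and 11.76, with log2 ratios of 1.03 (adjusted p = 0.00472, SE 0.17) and, on the dimmer probe, 0.68 (adjusted p = 0.0139, SE 0.144).

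Several genes of the tubule and of myeloid cells were regulated. Ptger3, the prostaglandin E receptor that restrains salt and water uptake in the thick limb and collecting duct, had 10.27, 10.32 and 10.33 in group A and 8.81, 9.28, 9.09, 9.08 and 9.25 in sham. Its log2 ratio was 1.2 (adjusted p = 0.00157, SE 0.142). It was the called gene among 10 tested markers of the thick ascending limb, beside 1.17% of all genes upregulated by their brightest probe. Kcnj1, the potassium channel of the same segment, had a log2 ratio of 1.03 (adjusted p = 0.0101, SE 0.202) on its brighter probe and missed the threshold. The Notch ligand gene Jag1 was at least 2.14-fold higher (adjusted p = 0.0052), and the urea transporter gene Slc14a2 had a log2 ratio of 1.17 (adjusted p = 0.0244, SE 0.281). Slc11a1, a metal transporter of macrophage phagosomes, had 10.65, 10.58 and 10.38 in group A and 9.24, 9.0, 9.2, 9.29 and 9.01 in sham, with a log2 ratio of 1.39 (adjusted p = 0.00361, SE 0.205). Its dimmer probe had a log2 ratio of −0.06 (SE 0.287). Ctss, a lysosomal protease gene of macrophages, was not well above background in sham and at least 1.51-fold higher in group A, but missed the threshold (adjusted p = 0.0148). C8b, a component of the complement membrane attack complex made mainly in the liver, had 8.16, 8.26 and 8.16 in group A and 6.25, 6.43, 6.15, 6.27 and 6.42 in sham, a log2 ratio of 1.89 (adjusted p = 0.00361, SE 0.278).

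The means of some marker lists lay apart between the groups, and these lists include the called genes Ptger3, Jag1 and Slc11a1. By the brightest probe their median log2 ratios were 0.24 for the thick limb, 0.37 for the thin limb and 0.14 for macrophages, beside −0.05 over all genes. The mean log2 intensity of the 10 thick ascending limb markers spanned 12.15 to 12.23 in group A and 11.68 to 12.02 in sham, and that of 7 thin limb markers spanned 9.37 to 9.49 and 8.36 to 9.02. The 10 macrophage markers spanned 7.65 to 7.98 and 7.26 to 7.53. Among them the complement genes C1qa, C1qb and C1qc had log2 ratios of 0.01, −0.23 and 0.1, and the defining surface marker Adgre1 had 0.58 and 0.48. The linear sums over the same lists spanned 94800 to 101000 against 76700 to 92500 for the thick limb, 21200 to 24500 against 15500 to 20600 for the thin limb and 3660 to 4760 against 2290 to 3000 for macrophages. For the 21 proximal tubule markers group A, at 10.99 to 11.13, lay within the sham range of 10.88 to 11.48, and their median log2 ratio was −0.32. Other lists also leaned lower in group A but overlapped sham. The 11 intercalated cell markers spanned 8.2 to 8.33 in group A and 8.27 to 8.98 in sham (median log2 ratio −0.42). The 6 distal convoluted tubule markers spanned 9.08 to 9.51 and 9.39 to 10.32 (median −0.45). By the brightest probe 1 gene each was upregulated of the 10 thick limb, 7 thin limb and 10 macrophage markers. Of the 21 proximal tubule markers 0 were, beside 1.17% of all genes, so 0 calls shows nothing particular to that list. At an unadjusted p under 0.05, 5 proximal tubule probes were higher and 1 lower (12.5% and 11.1% of all tested transcripts). The part of segment or cell content in the regulated transcripts was not tested. In such bulk samples a change in the number of cells of a type and a change in RNA per cell cannot be told apart.

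**Figure D3:**
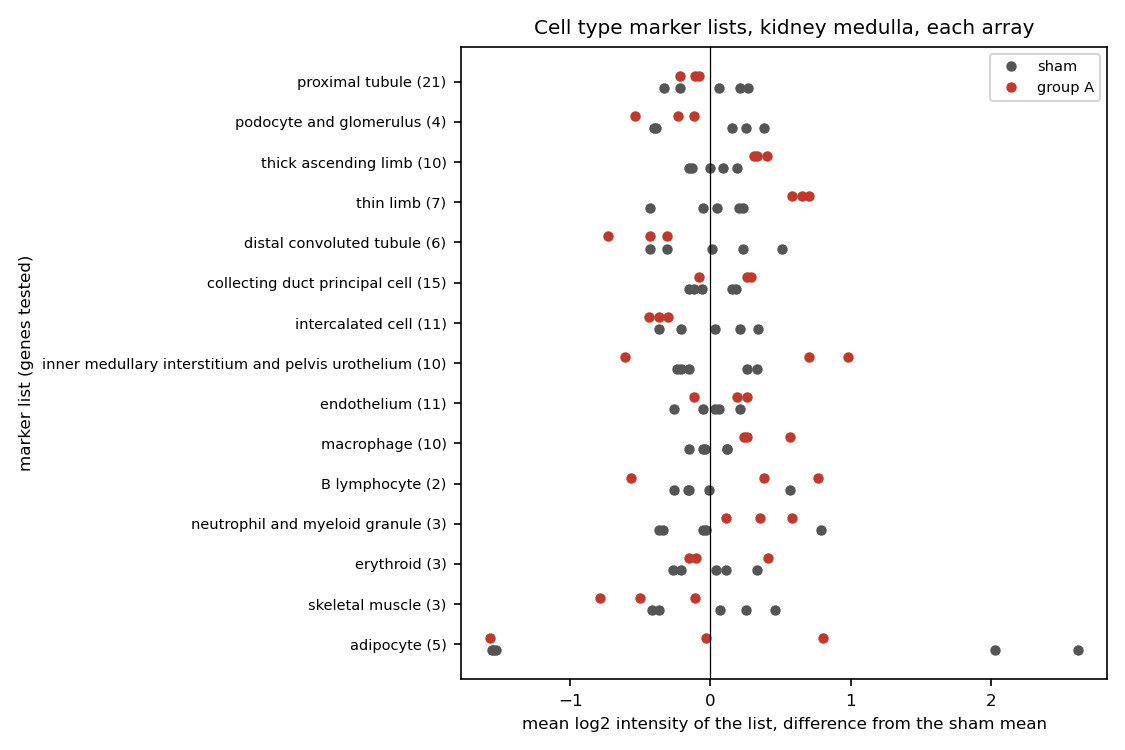
Mean log2 intensity of 15 cell type marker lists on each group A (red, n = 3) and sham (grey, n = 5) array of the kidney medulla, as the difference from the sham mean of that list. The number of tested genes stands in brackets; the thick ascending limb, thin limb and macrophage lists of group A lie above all sham arrays.

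The downregulated transcripts were fewer and fell less. Prap1, a proline-rich secreted protein of gut and kidney epithelia, had 6.49, 7.11, 6.09, 6.37 and 6.87 in sham and was not well above background in any group A mouse (at least 1.82-fold lower, adjusted p = 0.00686). Of 15 tested genes of coagulation and plasma protease inhibition, 2 had a downregulated probe, beside 0.186% of all tested genes, and 0 by the brightest probe alone (0.104%). Proc, the anticoagulant protease protein C, had 7.41, 7.67 and 7.82 in group A and 8.78, 8.65, 8.44, 8.79 and 8.81 in sham, with a log2 ratio of −1.06 (adjusted p = 0.0052, SE 0.179). Its brighter probe also lay lower, by −0.55 (adjusted p = 0.0478, SE 0.154), short of the threshold. Serpinf2, the inhibitor of plasmin, had 7.71, 7.99 and 8.14 against 9.03, 8.78, 8.88, 8.85 and 9.0, with a log2 ratio of −0.96 (adjusted p = 0.00899, SE 0.182). Its other probes had log2 ratios of −0.65 (SE 0.214) and −0.8 (SE 0.273).

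Membrane proteins of epithelial cells made up part of the rest. Hpn, the gene of hepsin, a serine protease that cleaves uromodulin in the thick limb, had 8.8, 8.78 and 9.09 in group A and 9.77, 9.67, 9.55, 9.51 and 9.64 in sham (log2 ratio −0.74, adjusted p = 0.00815, SE 0.137). The other probes of Hpn had −0.37 (SE 0.177) and −0.29 (SE 0.157). Cdhr2, a cadherin that links brush border microvilli, fell by 0.99 (adjusted p = 0.00969, SE 0.19) on the dimmest of 3 probes, and the others had −0.48 (SE 0.118) and −0.66 (SE 0.216). Cyp4f14, a fatty acid hydroxylase, fell by 0.8 (adjusted p = 0.00631, SE 0.141) and Prcp, a lysosomal peptidase that cleaves angiotensins, by 0.79 (adjusted p = 0.0061, SE 0.138). The BMP antagonist gene Chrd, the ciliary transport gene Ift27, the phosphatase subunit gene Ppp2r2c, Pnma1 and Kctd5 had log2 ratios between −0.71 and −1.02. The autophagy gene Wipi2 and the ER degradation gene Edem1 were not well above background in group A, at least 1.36-fold and 1.39-fold lower. By contrast with the brush border gene Cdhr2, Mep1a, the brush border protease meprin alpha, rose by 0.82 (adjusted p = 0.00361, SE 0.117), from 11.47 to 11.53 in sham to 12.27 to 12.39 in group A.

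Targets of p53 and genes of thyroid hormone response were looked up because the neck field held the thyroid. Of 24 tested p53 target genes 0 were called (median log2 ratio 0.03), with 4 of 38 probes higher and 4 lower at an unadjusted p under 0.05. Over all genes 1.64% had an upregulated and 0.186% a downregulated probe, and 12.5% and 11.1% of all probes were higher and lower at that p, and 0 calls in lists this short shows nothing particular to them. The p53 target gene Trp53inp1, a promoter of autophagy and cell death, had a log2 ratio of 1.83 (adjusted p = 0.0103, SE 0.358) on its dimmer probe, from 7.17 to 7.84 in group A and from 4.9 to 6.53 in sham. Its brighter probe was not called either, and its log2 ratio ran from 0.21 to 0.66 over the alternatives in processing and arrays. The other p53 targets under the unadjusted p of 0.05 were Fas, Polk and Tnfrsf10b with log2 ratios of 0.35, 0.46 and 0.57, and Dcxr, Ptp4a3, Sesn2 and Xpc with −0.66, −0.56, −0.64 and −0.3. Of 15 genes that sense or respond to thyroid hormone 0 were called, and their median log2 ratio was −0.11, beside −0.05 over all genes. Of their 19 probes 4 were higher and 1 lower at an unadjusted p under 0.05. The genes named next are on the higher side. Me1, the malic enzyme that thyroid hormone induces in liver, had log2 ratios of 0.71 (adjusted p = 0.0149, SE 0.152) and 0.42 (SE 0.131), and Gpd2, the mitochondrial glycerophosphate dehydrogenase, had 1.23 (adjusted p = 0.024, SE 0.294) on its dimmer probe. Lists of interferon response (15 genes), double-strand break repair (12), excision repair (17) and mitosis (9) held 0 calls, and at an unadjusted p under 0.05 they had 5, 1, 4 and 0 probes higher and 0, 1, 5 and 1 lower. Psmd14, a deubiquitinase of the proteasome lid, was upregulated by 0.83 (adjusted p = 0.0045, SE 0.136), as the called gene among 28 of the proteasome. Idi1 of sterol synthesis (1 of 17) and the kallikrein gene Egfbp2 (1 of 6) were not well above background in sham and at least 1.27-fold and 1.18-fold higher. In the clock list of 13 genes Nr1d2, a repressor of the clock, was at least 1.8-fold higher (adjusted p = 0.00366) on its dimmer probe and had a log2 ratio of 1.2 (adjusted p = 0.0259, SE 0.293) on its brighter.

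Genes that the study names for the medulla or assayed by QPCR were looked up on every tested probe; they were chosen by the study on these samples and are no independent evidence. Vbp1, Ndufb9 and Slc11a1 were called, and Trp53inp1, given above, was not called on either probe. Slc38a2, an amino acid carrier, gave log2 ratios of 1.49 (adjusted p = 0.0256, SE 0.361) and 0.34 (SE 0.273) on a pair of probes. The connexin 26 gene Gjb2 ranged from 0.01 to 0.86 over 3 probes, the largest at adjusted p = 0.0184. The parvalbumin gene Pvalb had 11.46, 10.87 and 11.46 in group A and 12.19, 11.18, 12.62, 12.26 and 11.63 in sham, and the groups overlapped (log2 ratio −0.71, SE 0.624). The muscle phosphoglycerate mutase gene Pgam2 had −0.76 (SE 0.528), and the kallikrein gene Klk1b27 had −0.77 (SE 0.347) and −0.61 (SE 0.21) on its probes.

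For genes with more than 1 tested probe, the change was seldom shared by the others. Of the upregulated genes 61 had more than 1 tested probe, and Tm9sf2 and Zfp367, a zinc finger protein, were called on 2. The 89 other probes of upregulated genes had a median log2 ratio of 0.02 (interquartile range −0.09 to 0.23), and 48 of them lay above 0. The called probe was the dimmer in 34 of the 60 genes with an uncalled probe and the brighter in 20. For the downregulated genes all 11 other probes also lay below 0, with a median of −0.48. Probes of a gene can read different transcript ends and variants, and which transcript each probe reads was not analysed here.

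**Figure D4:**
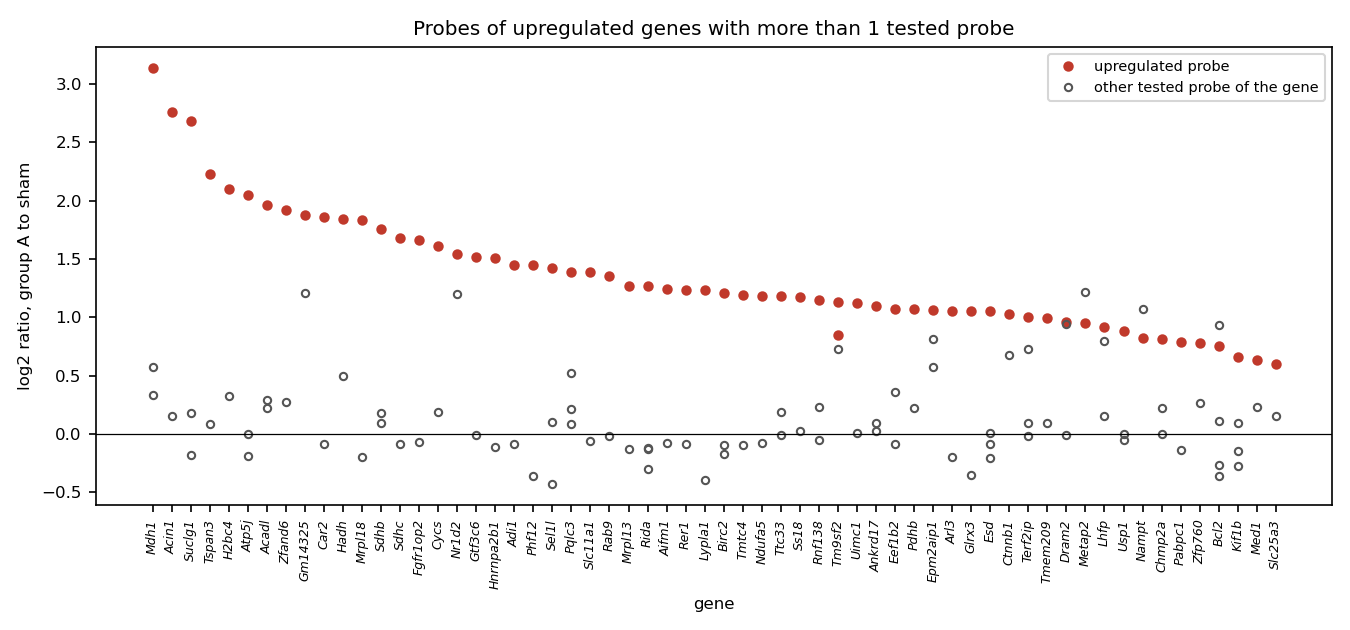
Log2 ratio of group A to sham in the kidney medulla for each tested probe of the 60 upregulated genes that also have an uncalled probe. Filled red points are upregulated probes and open points the other probes of the gene, whose median was 0.02; genes are ordered by the largest ratio of a called probe.

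The same transcripts were followed in the other tissues of the same mice. In kidney cortex 150 of the 152 upregulated transcripts were tested, and 140 of these had a log2 ratio below 0 in group A (median −0.31, beside 0.02 over all tested there). At an unadjusted p under 0.05, 34 of the 150 were lower and 0 higher in cortex, where 3.85% of all tested transcripts were lower and 3.91% higher. In cortex 0 of the 150 passed the threshold, but so did 0 of all 12296 transcripts tested in the medulla. That count is therefore not particular to them. In a model of both tissues, the ratio of group A to sham differed between medulla and cortex for 358 transcripts, 338 with the higher ratio in medulla (2.75%) and 20 with the lower (0.163%). Of the 152 upregulated transcripts 126 were among the 338, and of the 19 downregulated 3 were among the 20, on the same medulla arrays that chose them. Without replicate 1, 2 or 3 of group A in medulla the 358 became 175, 227 and 241, and without replicate 1, 2 or 3 of group A in cortex 235, 202 and 181.

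The mean log2 intensity over the 152 upregulated transcripts was 8.67, 8.58 and 8.62 in the medulla of group A and 7.24 to 7.37 in sham. In cortex, normalized apart and over the 150 tested there, it was 8.03 to 8.19 in group A and 8.32 to 8.57 in sham. With all 28 kidney arrays normalized together, 150 of the 152 were higher in sham cortex than in sham medulla (median difference 1.0), while 10 were higher in the cortex than in the medulla of group A (median −0.51). Over all tested transcripts 5670 of 12296 were higher in sham cortex than in sham medulla, and 6541 were higher in the cortex than in the medulla of group A. Since the transcripts were chosen as low in the sham medulla, this is a description without a test. Dld, for example, averaged 10.07 in the sham cortex, 8.81 in the sham medulla and 10.07 in the medulla of group A on that joint scale. Of the 19 downregulated transcripts 3 were higher in sham cortex than in sham medulla. In group A 17 of the 19, chosen as low in its medulla, were higher in cortex than in medulla (median 0.48).

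In liver 109 of the 114 upregulated transcripts tested there lay below 0 in group A (median −0.43), with 50 lower and 0 higher at an unadjusted p under 0.05, where 4.79% and 3.26% of all tested transcripts were. In spleen 98 of 125 lay above 0 (median 0.22), with 29 higher and 1 lower at that p, where 5.31% and 4.64% of all tested transcripts were. In lungs the median of 136 was −0.02, with 1 higher and 4 lower (0.419% and 0.659% of all). In thyroid the median of 122 was −0.24, with 4 higher and 9 lower (3.31% and 5.18% of all), where the mean over the upregulated transcripts ran from 7.0 to 7.73 in group A and from 7.04 to 7.73 in sham. None of the transcripts tested there passed the threshold in group A in liver, spleen, lungs or thyroid. The share of all transcripts that passed in these tissues is not given here, so this shows nothing particular to them.

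**Figure D5:**
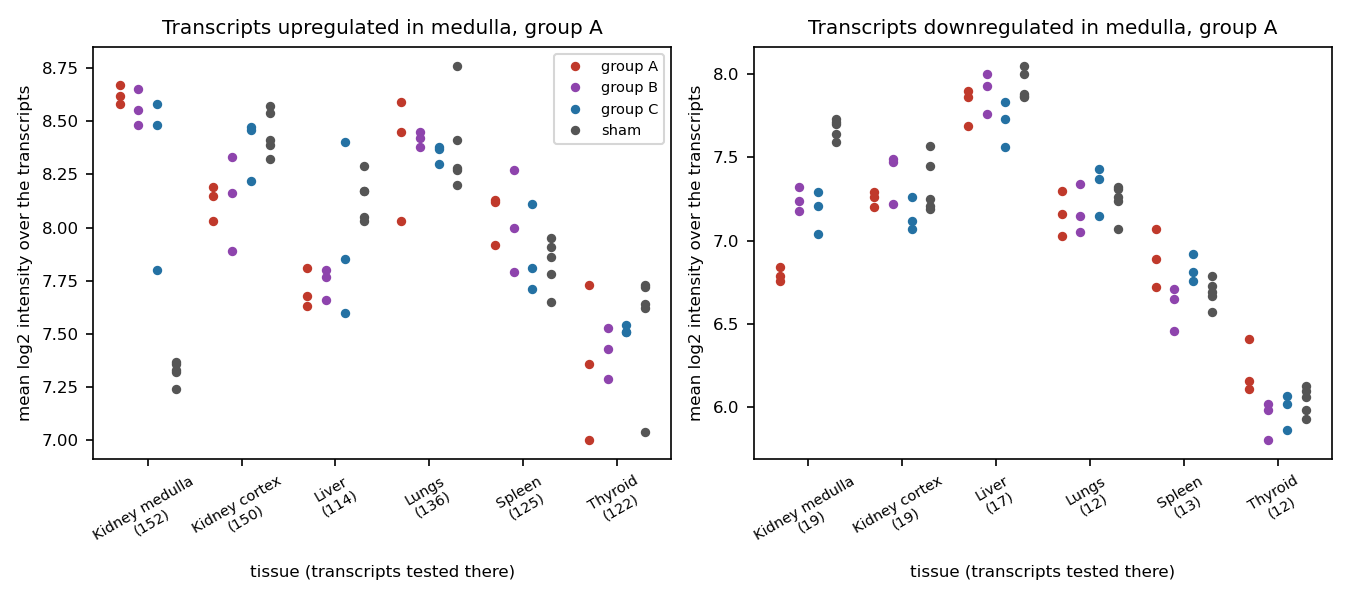
Mean log2 intensity, per mouse, over the transcripts upregulated (left) and downregulated (right) in the medulla of group A, in 6 tissues and 4 groups; the number of transcripts tested in each tissue stands in brackets and each tissue was normalized apart. In the medulla the 5 sham mice lie at 7.24 to 7.37 on the left, below all irradiated mice, whereas in cortex sham lies above group A.

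Groups B and C were compared with the same 5 sham mice, so their ratios share the sham level. The median log2 ratio of the 152 upregulated transcripts was 1.21 in group A, 1.15 in group B and 0.96 in group C, and that of the 19 downregulated ones was −0.83, −0.42 and −0.48. Over all tested transcripts 1.74% were upregulated in group B and 0.13% in group C. The mean of the upregulated transcripts was 8.48 to 8.65 in group B, and 8.58, 8.48 and 7.8 in the replicates of group C, of which the third lay nearest to sham. The mean of the downregulated transcripts was 6.76 to 6.84 in group A, 7.18 to 7.32 in group B, 7.04 to 7.29 in group C and 7.59 to 7.73 in sham, and here group A had been chosen as low. In direct tests, 0 of 12296 transcripts differed between groups A and B by limma (404 at an unadjusted p under 0.05, 3.29%), and 0 between groups A and C (925, 7.52%). For Vbp1 the log2 ratio against sham was 1.57 in group A, 1.18 in group B and 1.3 in group C, and for Prap1 it was −1.31, −0.38 and −0.45. A p that misses the threshold does not show that the groups act alike: the difference between groups A and B for Vbp1 was 0.39 (adjusted p = 0.999, SE 0.171).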

How the data were processed

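Kidney medulla RNA was hybridized to 14 Illumina arrays, 1 per mouse. The authors deposited bead-summarized signal intensity without normalization and a detection p-value for each of 25697 probes, and all columns were mapped to samples. Their separately deposited table of quantile-normalized intensity served as an alternative. Intensities were corrected with nec (normexp on negative probes estimated from the detection p-values, offset 16), quantile normalized over the 14 arrays and taken to log2 in limma 3.58.1 (R 4.3.3). Probes with a detection p under 0.01 on at least 3 arrays were tested by a linear model of the 4 groups with moderated statistics and Benjamini-Hochberg adjustment. Cortex was normalized apart and joined in 1 model for the difference between tissues, without a term for the mouse. The script was tested on simulated data. Of the probes 23978 carried 1 gene symbol and 1719 none.

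Named are the 15 upregulated and 15 downregulated transcripts with the largest log2 ratio, the called and top members of 47 gene lists, the genes the study names and the other probes of all of these, plus genes chosen after their values were seen. The members and lists were chosen with earlier results of these data known. Mice are the replicates, and probe sequences were not used here.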

Additional observations from a re-analysis of the deposited data

Results flagged for a closer look

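In the 5 sham mice, 1 mouse lay apart from the other 4 for 5 of 102 transcripts examined, and chance flags about 1 in 20 such groups. Sham replicate 2 was low for Cycs (6.26 on the log2 scale, the others 7.16 to 7.32), Ift27 (6.97, the others 7.31 to 7.4) and Mrpl13, a mitochondrial ribosomal protein gene (6.53, the others 7.08 to 7.27). Sham replicate 1 was high for Cdhr2 (7.99, the others 7.68 to 7.74), and sham replicate 3 for Snx3 (7.86, the others 7.32 to 7.47).

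The log2 ratio of group A to sham differed between medulla and cortex for 358 transcripts by the test of the difference itself, and 17 of these are among the transcripts named for their size. The medulla ratio exceeded the cortex ratio by 4.2 for Eef1a1, 3.59 for Acin1, 3.36 for Mdh1, 2.75 for C8b, 2.71 for Rpl22l1 and Suclg1 alike, and 2.59 for Gm14325. It did so by 2.58 for Atp5j, 2.52 for H2bc4, 2.42 for Zfand6, 2.4 for Ccni, 2.23 for Acadl, 2.21 for Tspan3 and 2.06 for Nono. The differences were −1.16 for Pnma1, −0.94 for Ppp2r2c and −0.91 for Kctd5. For transcripts not well above background in sham medulla these fitted differences are no bounds.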

How the results depend on the processing

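All 152 upregulated and 19 downregulated transcripts kept their direction in every alternative in which they were tested, but sizes and counts of calls moved. Their median log2 ratios of 1.21 and −0.83 became 0.75 and −0.47 with the authors' normalized values and 0.81 and −0.53 with no background correction. The 171 regulated transcripts became 112 without a detection filter (98 up), 272 with a variance trend and robust moderation (249 up), 554 with group A and sham alone in the fit (471 up, 83 down) and 737 with array weights (586 up, 151 down). With the authors' normalized values and with no background correction 7 were downregulated in each case. Leaving out 1 array gave 3 to 497 regulated, 3 to 446 upregulated and 0 to 97 downregulated transcripts. Leaving out replicates 2 and 3 of group C together, chosen after seeing the data, gave 678, 558 and 120. The count that differed between medulla and cortex was 175 to 352 with 1 array left out and 2784 at an unadjusted p under 0.05, and 0 transcripts differed between groups A and B or A and C in any alternative run. List members called rose from 19 by the brightest probe to 34 by any probe. Replicate numbers are shared between groups but do not pair the mice: same-numbered deviations of group A and sham correlated at 0.012 to 0.208, and 2 of 3 arrays of group A correlated best with their own number. With the replicate number as a block in the medulla fit 1 transcript, Nono, stayed regulated (1 up, 0 down). In the model of medulla and cortex the block was another, group and number together, which takes both tissues of 1 mouse as a pair. With it 341 transcripts differed between the tissues (consensus correlation −0.022). Apart from the replicate block of the medulla fit, Tomm22, Vbp1 and Acadl kept their calls whichever array was left out. Slides were not run as a block. The cause of these changes was not tested. Dim probes limit the rest: 39 upregulated transcripts were not well above background in any sham mouse, and only 38 of them have a bound.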
